A study of Homo sapiens with 12 samples.

Results

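The nuclear genes that encode subunits of the 5 complexes of the mitochondrial respiratory chain were followed here through a map of DNA G-quadruplexes. They were taken by symbol: protein-coding nuclear genes starting with NDUFA, NDUFB, NDUFC, NDUFS, NDUFV, UQCR, COX4 to COX8 or ATP5, with SDHA to SDHD and CYC1, and without the NDUFAF assembly factors. That gave 89 of 20039 protein-coding nuclear genes, 38 for complex I, 4 for complex II, 10 for complex III, 17 for complex IV and 20 for complex V. Each gene took the window on its own strand whose transcription start site (TSS) lay nearest its RefSeq 5′ end within 1000 bp. Of the 89 genes, 78 had such a window, and as NDUFC2 with its readthrough gene and ATP5MF with its readthrough gene share theirs, 76 distinct windows were described of 16722 protein-coding windows. They were 33 for complex I, 4 for complex II, 8 for complex III, 15 for complex IV and 16 for complex V. The 11 genes without a window were NDUFA5, NDUFB2, NDUFS3, NDUFV3, UQCRC1, UQCRHL, COX4I1, COX7A2L, ATP5MC2, ATP5MC3 and ATP5MJ.

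The respiratory chain sits in the inner mitochondrial membrane. Complex I (NADH dehydrogenase), complex II (succinate dehydrogenase) and complex III (cytochrome bc1) pass electrons through ubiquinone and cytochrome c to complex IV (cytochrome c oxidase), and complex V (ATP synthase) uses the proton gradient that builds up to make ATP. Apart from complex II, which is wholly nuclear-encoded, each complex joins subunits from the mitochondrial genome with the nuclear subunits described here. Their promoters are known as targets of the transcription factors NRF1 and GABP. A G-quadruplex is a four-stranded fold that guanine-rich DNA can take, and promoters rich in runs of G or C are where such folds have mostly been mapped.

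The study mapped these folds in HEK293, an established human embryonic kidney line, using ChIP-seq with BG4, a G-quadruplex antibody fragment. The cells were untreated, grown in high-glucose medium with serum and fixed with formaldehyde. There were 3 biological replicates, BioRep1, BioRep2 and BioRep3, with 3 technical ChIP libraries and 1 input each. The inputs were not analysed here, so no level below is set against chromatin taken through without the antibody. All groups hold the same cells under the same condition, and the comparisons are between complexes, between these genes and all protein-coding genes, and between the biological replicates. Levels are read counts of a 400 bp window centred on the TSS, scaled to the library's reads in all windows (CPM) and averaged over the technical libraries of a biological replicate. The windows held 372030 to 846114 reads per library, and a respiratory chain window had a median of 25 reads in a library. In these bulk libraries, fewer cells with a fold and less signal per cell cannot be told apart.

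Promoters of some members with and without a peak are shown first. Each is the 250 bases upstream of the RefSeq start, read 5′ to 3′ on the strand of the gene, from RefSeq sequences on GRCh38.p14. Capitals mark every run of at least 3 G or 3 C. COX5A, ATP5PD, SDHB, NDUFA6 and UQCRQ are the members with the highest BG4 level in complexes IV, V, II, I and III. COX7B is a complex IV gene whose window had no peak, and COX7A2 has a pair of RefSeq starts that differed. Both were chosen after their values were seen. COX6B2 and COX8C of complex IV, not shown, also had no peak, with 72.8% and 65.2% G and C in these bases. The last letter of each line is the base just before the start.
COX5A: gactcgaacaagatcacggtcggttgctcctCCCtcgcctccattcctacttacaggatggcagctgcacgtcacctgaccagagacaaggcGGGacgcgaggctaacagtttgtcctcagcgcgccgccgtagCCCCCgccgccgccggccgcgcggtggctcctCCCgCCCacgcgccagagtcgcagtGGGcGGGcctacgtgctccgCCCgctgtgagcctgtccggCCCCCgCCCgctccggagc
ATP5PD: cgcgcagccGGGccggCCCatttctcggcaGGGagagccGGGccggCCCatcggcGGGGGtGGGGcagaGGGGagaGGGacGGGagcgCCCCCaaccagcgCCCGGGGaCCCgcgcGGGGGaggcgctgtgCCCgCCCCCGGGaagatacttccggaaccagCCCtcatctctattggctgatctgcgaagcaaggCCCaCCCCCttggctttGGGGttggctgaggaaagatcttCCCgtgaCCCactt
SDHB: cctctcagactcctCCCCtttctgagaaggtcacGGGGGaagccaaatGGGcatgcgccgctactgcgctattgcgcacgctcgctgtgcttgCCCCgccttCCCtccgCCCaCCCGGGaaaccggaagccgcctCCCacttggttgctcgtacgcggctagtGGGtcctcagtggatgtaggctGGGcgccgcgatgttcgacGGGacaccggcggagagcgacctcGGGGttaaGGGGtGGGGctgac
NDUFA6: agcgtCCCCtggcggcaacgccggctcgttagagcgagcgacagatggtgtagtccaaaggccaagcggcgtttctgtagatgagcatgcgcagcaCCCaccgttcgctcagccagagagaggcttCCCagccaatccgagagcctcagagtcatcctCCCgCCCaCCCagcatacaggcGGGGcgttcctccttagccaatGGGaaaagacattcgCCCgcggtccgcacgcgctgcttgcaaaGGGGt
UQCRQ: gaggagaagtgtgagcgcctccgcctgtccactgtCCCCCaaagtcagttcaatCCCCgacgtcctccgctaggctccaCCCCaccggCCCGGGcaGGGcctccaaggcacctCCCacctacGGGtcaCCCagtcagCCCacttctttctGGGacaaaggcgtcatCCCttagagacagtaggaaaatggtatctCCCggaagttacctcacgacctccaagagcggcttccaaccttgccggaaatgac
COX7B: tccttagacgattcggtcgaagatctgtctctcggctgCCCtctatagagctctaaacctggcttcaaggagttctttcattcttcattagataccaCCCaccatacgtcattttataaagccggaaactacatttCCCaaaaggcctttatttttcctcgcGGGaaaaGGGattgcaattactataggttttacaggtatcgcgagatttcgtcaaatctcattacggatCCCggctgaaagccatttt
COX7A2 outer start: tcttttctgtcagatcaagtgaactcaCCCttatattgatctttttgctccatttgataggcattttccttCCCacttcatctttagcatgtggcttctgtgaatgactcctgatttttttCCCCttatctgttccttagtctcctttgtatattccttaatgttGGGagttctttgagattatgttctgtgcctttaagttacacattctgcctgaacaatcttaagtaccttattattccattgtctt
COX7A2 inner start: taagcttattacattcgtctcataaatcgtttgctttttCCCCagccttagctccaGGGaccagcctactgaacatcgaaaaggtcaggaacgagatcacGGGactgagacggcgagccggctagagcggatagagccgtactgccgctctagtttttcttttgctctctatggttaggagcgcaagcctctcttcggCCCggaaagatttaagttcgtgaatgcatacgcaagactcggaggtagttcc

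The stretches lie at chr15:74938074-74938323 (minus strand) for COX5A, chr17:75046970-75047219 (minus strand) for ATP5PD, chr1:17054033-17054282 (minus strand) for SDHB, chr22:42090773-42091022 (minus strand) for NDUFA6, chr5:132866392-132866641 (plus strand) for UQCRQ, chrX:77899218-77899467 (plus strand) for COX7B, chr6:75250299-75250548 (minus strand) for COX7A2 outer start, chr6:75243802-75244051 (minus strand) for COX7A2 inner start. All 250 bases of COX5A and ATP5PD lay under a peak in each of the 3 peak lists. For SDHB 240, 250 and 250 bases lay under a peak in BioRep1, BioRep2 and BioRep3, and for NDUFA6 229, 250 and 250. UQCRQ was covered over 42, 159 and 249 bases, on the side nearest the start. COX7B and the outer COX7A2 stretch had no base under a peak in any list. The inner COX7A2 stretch had 70, 115 and 78 bases under peaks. G and C made up 70.8% of the COX5A and ATP5PD stretches, 66.4% of SDHB, 62.8% of NDUFA6, 60.4% of UQCRQ, 43.2% of COX7B, and 36.4% and 50.4% of the outer and inner COX7A2 stretches. ATP5PD holds 24 runs of 3 or more G or C, the outer COX7A2 stretch 4.

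Peaks of the BG4 signal were more frequent at respiratory chain genes than over all protein-coding genes in each of the 3 lists, and the margin was small in the shortest list. Of the 76 windows, 24 overlapped a peak in all 3 lists (31.6%, 95% Wilson interval 22.2 to 42.7%), against 23.9% of all 16722 protein-coding windows. In at least 2 lists the count was 44 of 76 (57.9%, interval 46.7 to 68.4%), against 34.1% of all windows. No peak in any list was found at 25 members (32.9%), against 58.7% of all windows. By list, 24 members (31.6%) had a peak in BioRep1, 48 (63.2%) in BioRep2 and 47 (61.8%) in BioRep3, against 25.3%, 35.5% and 38.5% of all windows. BioRep1 has the shortest list, with 7931 peaks against 11665 in BioRep2 and 13049 in BioRep3. Every one of the 24 members with a BioRep1 peak also had one in both other lists, so BioRep1 set the count in all 3. This was close to the general case: of 4237 protein-coding windows with a BioRep1 peak, 3990 had one in all 3 lists. Without BioRep1 the share of members was 57.9%, against 33.01% of all windows. The intervals cover counting error only, and since the genes were chosen with earlier results known, these shares are a description with no test.

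The signal itself showed the same order. The median member had 40.3, 43.2 and 44.3 CPM in BioRep1, BioRep2 and BioRep3, and the median of all protein-coding windows was 24.1, 22.8 and 23.3 CPM. Over the biological replicates this is 42.6 ± 2.04 CPM for the respiratory chain and 23.4 ± 0.67 CPM for all protein-coding windows (SD, n = 3). Of the members, 33 of 76 (43.4%) lay above the upper quartile of all protein-coding windows (46.7 CPM), 11 in the top 10% (above 69.2 CPM) and 18 below the overall median (23.5 CPM). Those 11 are 14.5% of the members.

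**Figure D1:**
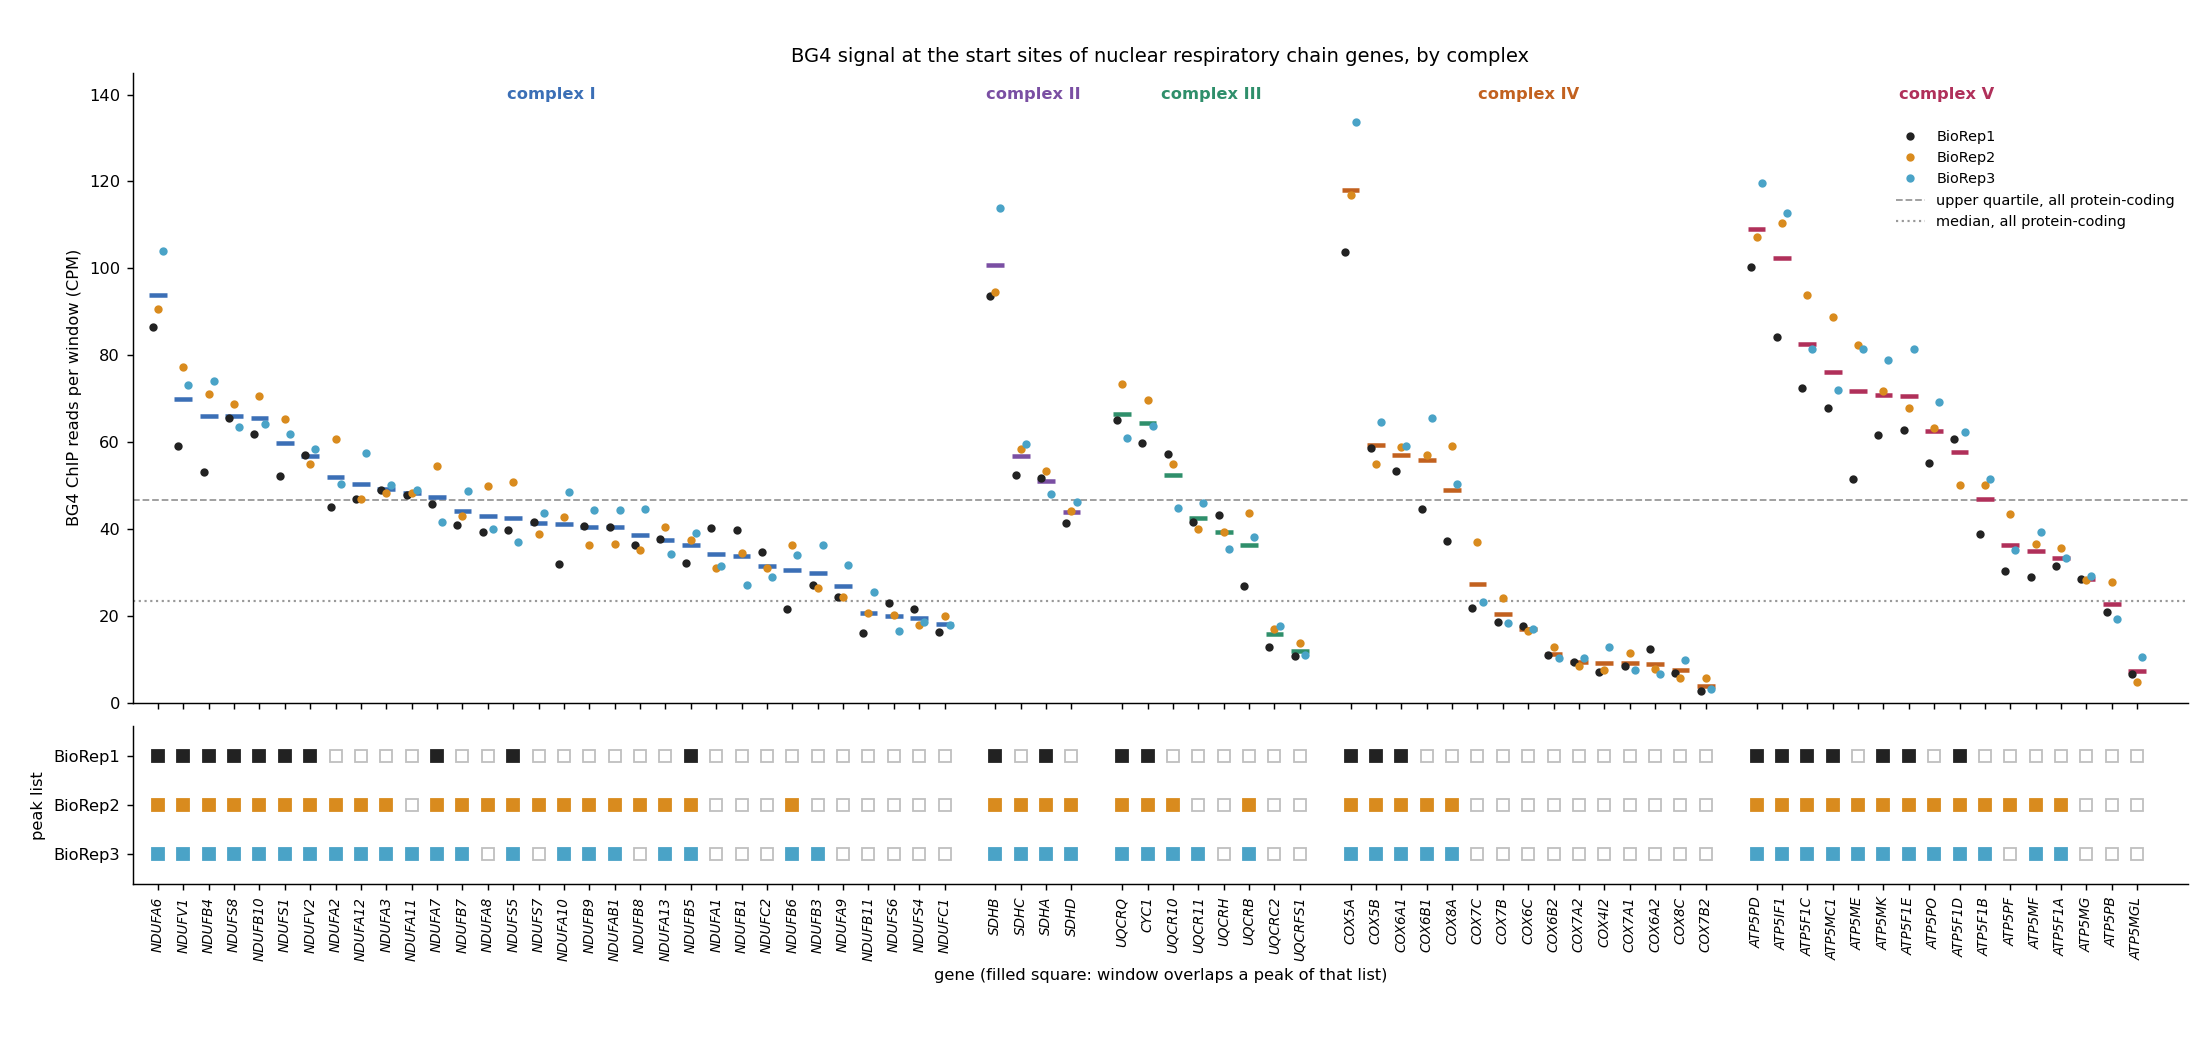
BG4 ChIP reads per 400 bp window (CPM, vertical axis) for 75 of the 76 respiratory chain windows, ordered by complex and by level, with a point for each of BioRep1, BioRep2 and BioRep3, a bar for their mean, and lines at the median (23.5 CPM) and upper quartile (46.7 CPM) of all protein-coding windows. The squares below are filled where the window overlaps a peak of that list. COX5A stands highest at 118 CPM, and most of the right-hand side of complex IV lies under the overall median with no filled square.

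The complexes differed in level, with complex V highest and complex IV lowest in all 3 biological replicates. The median of complex V was 53.4, 56.8 and 65.8 CPM in BioRep1, BioRep2 and BioRep3. Complex II, with 4 genes, came second in each replicate at 52.1, 55.9 and 53.8 CPM. Its range overlaps that of complex V, so those neighbours did not differ beyond their spread. Complex I had 40.2, 40.5 and 43.6 CPM and complex III 42.3, 41.9 and 41.5 CPM. They changed places in BioRep3 and did not differ beyond their spread. Complex IV had 17.7, 16.6 and 16.9 CPM, below the median of all protein-coding windows in every replicate. As means over the biological replicates the medians were 58.7 ± 6.42 for complex V, 53.9 ± 1.88 for complex II, 41.9 ± 0.41 for complex III, 41.4 ± 1.91 for complex I and 17.1 ± 0.55 CPM for complex IV (SD, n = 3).

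Counts of peaks in the windows gave complexes II and V the highest shares and complex IV the lowest. A peak in all 3 lists was found at 7 of 16 complex V windows (43.8%, interval 23.1 to 66.8%), 2 of 4 of complex II (50%, 15.0 to 85.0%), 10 of 33 of complex I (30.3%, 17.4 to 47.3%), 2 of 8 of complex III (25%, 7.15 to 59.1%) and 3 of 15 of complex IV (20%, 7.05 to 45.2%). The intervals of all 5 complexes overlap, so these windows are too few to separate complexes by this count. The share of all protein-coding windows was 23.9%, close to those of complexes III and IV. In at least 2 lists the counts were 12 of 16 for complex V, 4 of 4 for complex II and 19 of 33 for complex I. Complex III had 4 of 8 and complex IV 5 of 15 (33.3%). The share of all windows in at least 2 lists was 34.1%.

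**Figure D2:**
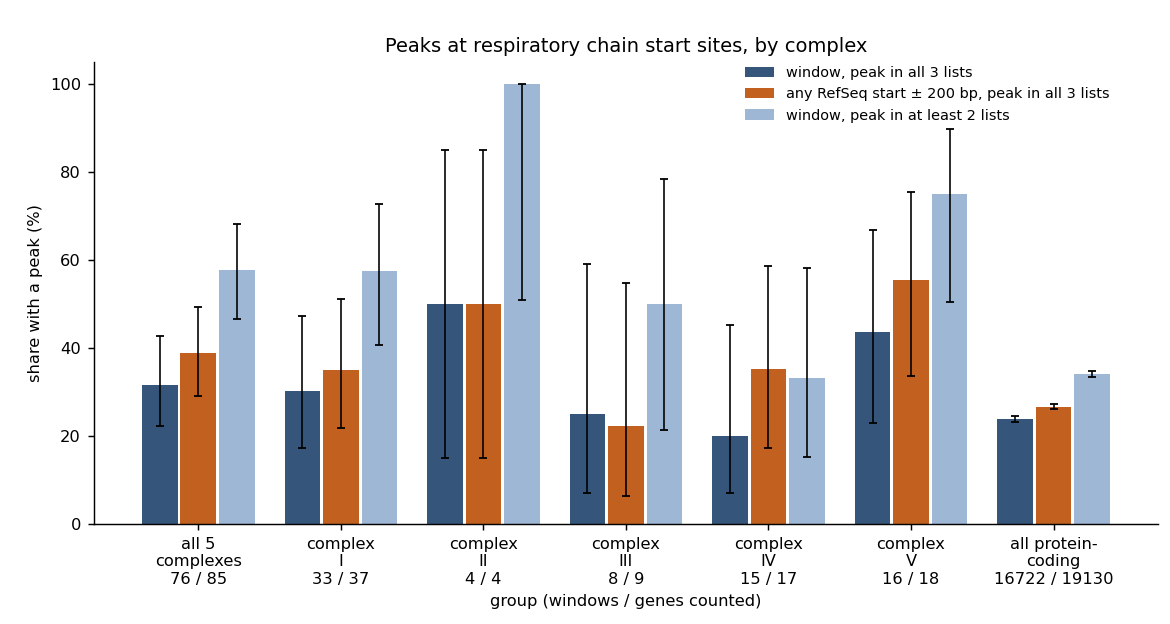
Share of windows or genes with a BG4 peak (%, vertical axis) for all 5 complexes together, for each complex and for all protein-coding genes, with 95% Wilson intervals. Dark blue is a peak in all 3 lists in the deposited window, orange is a peak in all 3 lists within 200 bp of any RefSeq start of the gene, and light blue is a peak in at least 2 lists in the window. Complex IV is lowest in the window counts, at 20% and 33.3%, and its orange bar stands at 35.3%.

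Complex IV was split. At the top stood COX5A and COX5B, peripheral subunits on the matrix side, COX6A1, the ubiquitous form of subunit 6A, and COX6B1, on the side where cytochrome c docks. The COX5A window (chr15:74937969-74938368, minus strand, 95 bp from the RefSeq start) had 104, 117 and 134 CPM in BioRep1, BioRep2 and BioRep3. That is 118 ± 15.0 CPM, the highest of the 76 windows, and its 9 libraries ran from 100.2 to 136 CPM. COX5B had 58.7, 55.0 and 64.6 CPM and COX6A1 53.4, 58.8 and 59.0 CPM. These 3 genes had a peak in all 3 lists. COX6B1, with 44.7, 57.0 and 65.7 CPM, and COX8A, with 37.3, 59.1 and 50.4 CPM, had one in BioRep2 and BioRep3 only. Their BioRep1 level was the lowest of the 3 for both genes. The lowest windows were those of COX7B2, with 2.77, 5.80 and 3.20 CPM, and COX8C, with 6.88, 5.79 and 9.92 CPM, both forms of their subunits known from testis.

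Tissue or germline forms lay at the low end of complex IV, together with COX7A2. Expression in HEK293 was not measured here, so a link between tissue and level was not tested. A list of tissue or germline forms held 7 members with a window: COX4I2, known from lung, COX6A2 and COX7A1, from heart and skeletal muscle, COX6B2, COX7B2 and COX8C, from testis, and ATP5MGL of complex V. None of the 7 had a peak in any list, and their means lay between 3.93 and 11.4 CPM. Of all protein-coding windows, 58.7% had no peak in any list. A count of 0 of 7 allows a share of up to 35.4% (95% Wilson bound). That bound is under the 41.3% of all windows with a peak in any list and above the 34.1% in at least 2. Without these forms the 9 other complex IV windows had a median of 37.3, 55.0 and 50.4 CPM, or 47.6 ± 9.19 CPM (SD, n = 3). The lowest complex was then IV in BioRep1, I in BioRep2 and III in BioRep3. Among those 9 windows, 4 had no peak in any list. They were COX7C (27.4 ± 8.41 CPM), COX7B (20.4 ± 3.29 CPM), COX6C (17.1 ± 0.55 CPM) and COX7A2 (9.39 ± 0.94 CPM), which encode small subunits of the oxidase and were named after their values were seen.

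Complex V, whose median did not differ from that of complex II beyond their spread, held windows at both ends of the range. ATP5PD, the d subunit of the peripheral stalk, had 100.3, 107 and 119.6 CPM in its window (chr17:75046786-75047185, minus strand). ATP5IF1, the inhibitor that binds the enzyme when it would hydrolyse ATP, had 84.2, 110.3 and 113 CPM (chr1:28235910-28236309, plus strand). ATP5F1C, the rotating gamma subunit, had 72.4, 93.9 and 81.4 CPM and ATP5MC1, one of the genes for the c-ring, 67.9, 88.8 and 72.1 CPM. All 4 had a peak in every list, and BioRep1 was the lowest replicate for each. The lowest were ATP5PB, the b subunit of the stalk, with 20.8, 27.9 and 19.3 CPM, and ATP5MGL, with 6.69, 4.69 and 10.5 CPM. The ATP5PB window lies 600 bp from the RefSeq start, at which BioRep2 and BioRep3 had a peak.

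By part of the synthase, the 5 genes of the F1 head, where ATP is made, all had a peak in at least 2 lists, and 3 had one in all 3. ATP5F1D and ATP5F1E, of the central stalk, were among the 3, with ATP5F1C. ATP5F1A and ATP5F1B, the alpha and beta subunits that form the catalytic sites, had a peak in BioRep2 and BioRep3 and means of 33.4 ± 2.08 and 46.8 ± 6.96 CPM. Of the 4 peripheral stalk genes 2 had a peak in at least 2 lists, and of the 4 membrane part genes with a window 3 had one. For that count the F1 interval (95% Wilson) was 56.6 to 100%. It was 15.0 to 85.0% for the stalk and 30.1 to 95.4% for the membrane part. The intervals overlap, so these windows are too few to separate the parts. The shares of all protein-coding windows were 34.1% in at least 2 lists and 23.9% in all 3.

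Complex I, the largest complex, stood close to the whole respiratory chain. NDUFA6, an accessory subunit at the junction of the arms, had 86.6, 90.7 and 104 CPM (chr22:42090756-42091155, minus strand). NDUFV1, the flavin-binding subunit that takes electrons from NADH, had 59.1, 77.3 and 73.1 CPM. NDUFB4, of the membrane arm, had 53.1, 71.1 and 74.2 CPM and NDUFS8, an iron-sulphur subunit, 65.6, 68.8 and 63.5 CPM. These windows all had a peak in the 3 lists. At the low end was NDUFC1, of the membrane arm, with 16.3, 19.9 and 17.9 CPM and no peak in its window.

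Core and accessory subunits of complex I gave different counts. A peak in all 3 lists was found at 4 of 6 core windows (66.7%, interval 30.0 to 90.3%) and 6 of 27 accessory windows (22.2%, 10.6 to 40.8%). The accessory share was close to the 23.9% of all protein-coding windows. In at least 2 lists the counts were 4 of 6 (66.7%) and 15 of 27 (55.6%), against 34.1% of all. The gap thus narrowed with the longer lists, and the intervals overlap. The median of the core windows was 54.6, 60.2 and 60.1 CPM and that of the accessory windows 39.7, 37.4 and 40.1 CPM. The core median was higher in all 3 biological replicates. By module, a peak in all 3 lists was found at 3 of 7 windows of the N module, which oxidises NADH. It was found at 3 of 6 of the Q module, which reduces ubiquinone, and 4 of 20 of the P module, which pumps protons. The P module share, 20%, was also near that of all windows.

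Complex II had a peak at all 4 genes in BioRep2 and BioRep3, against 35.5% and 38.5% of all protein-coding windows. With only 4 genes the 95% Wilson interval ran from 51.0 to 100%. SDHB, the iron-sulphur subunit, had 93.7, 94.6 and 114 CPM (chr1:17053971-17054370, minus strand), and SDHA, the flavoprotein, 51.9, 53.4 and 48.0 CPM. Both had a peak in all 3 lists. SDHC and SDHD, the membrane anchors, had 52.3, 58.4 and 59.7 CPM and 41.5, 44.0 and 46.2 CPM, with no peak in BioRep1. SDHC lay above SDHA on average and yet missed the BioRep1 list, so a peak call did not follow the window level alone.

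In complex III, UQCRQ, a small subunit, had 65.2, 73.3 and 61.0 CPM (chr5:132866361-132866760, plus strand) and CYC1, cytochrome c1, 59.8, 69.8 and 63.7 CPM. They were the only members of this complex with a peak in all 3 lists. UQCR10 had 57.4, 54.9 and 44.9 CPM and UQCR11 41.5, 40.1 and 45.9 CPM. The lowest were UQCRC2, a core protein, with 12.9, 16.9 and 17.6 CPM, and UQCRFS1, the Rieske iron-sulphur protein, with 10.8, 13.8 and 11.1 CPM. The UQCRFS1 window lies 390 bp from the RefSeq start, and the UQCRC2 window is farther from it than that of any other member.

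Windows that miss the RefSeq start of their gene had fewer peaks. The 65 member windows that hold the RefSeq 5′ end of the gene included all 24 with a peak in 3 lists (36.9%), and the 11 that do not hold it had none in even 2 lists. Over all protein-coding windows the shares in 3 lists were 25.6% where the window holds the end and 16.0% where it does not. Peaks were therefore also counted within 200 bp of any RefSeq start of the gene, a count added after the window counts had been seen. A peak in all 3 lists was then found at 33 of 85 respiratory chain genes (38.8%, interval 29.2 to 49.5%), against 26.7% of 19130 protein-coding genes. By complex the counts were 13 of 37 for I, 2 of 4 for II, 2 of 9 for III, 6 of 17 for IV and 10 of 18 for V. Complex IV was thus no longer lowest: it had 35.3%, beside 35.1% for complex I and 22.2% for complex III. Without the tissue and germline forms complex IV had 6 of 11, and complex V 10 of 17.

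The genes this count added include main forms of their subunits. COX4I1, the ubiquitous form of subunit 4 and without a window here, had a peak in all 3 lists at its RefSeq start, as did NDUFV3, NDUFB2 and ATP5MJ. ATP5MC2 and COX7A2L had one at some of their starts and none at others. For COX7A2 the outer start, which the window follows, had no peak, and the inner start had one in each list. NDUFC1 showed the same split, with 2 inner starts that had a peak in every list and 2 outer ones that had none. ATP5PF had a peak in all 3 lists at both its RefSeq starts and in 1 list in its window. These genes were named after their values were seen. A low window level for COX7A2, NDUFC1, UQCRFS1 or ATP5PB is thus a value for that window and not for every start of the gene.

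The position of the peak was read at the 24 windows with one in all 3 lists, which were chosen by overlap with the window, so that a place near the TSS is no result. The midpoint of the peak, averaged over the lists, had a median of -32.8 bp from the window's TSS, where negative is upstream, against -43.9 bp over all protein-coding windows with such a peak. It was upstream at 17 of 24 members (70.8%), against 70.4% of all, close to the general share. All 7 complex V peaks were centred upstream, between -155 and -12.0 bp, with ATP5MC1 farthest. Neither of the 2 in complex II was, and complex I spread on both sides, from -118 bp at NDUFV2 to 103 bp at NDUFB5. These places depend on the TSS used. The window's TSS lies upstream of the RefSeq start by 138 bp at SDHB, 79 bp at SDHA and 104 bp at NDUFB5. Each distance exceeds that of the midpoint, so none of these peaks was centred downstream of the RefSeq start. The contrast between complexes thus holds for the window's TSS only.

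**Figure D3:**
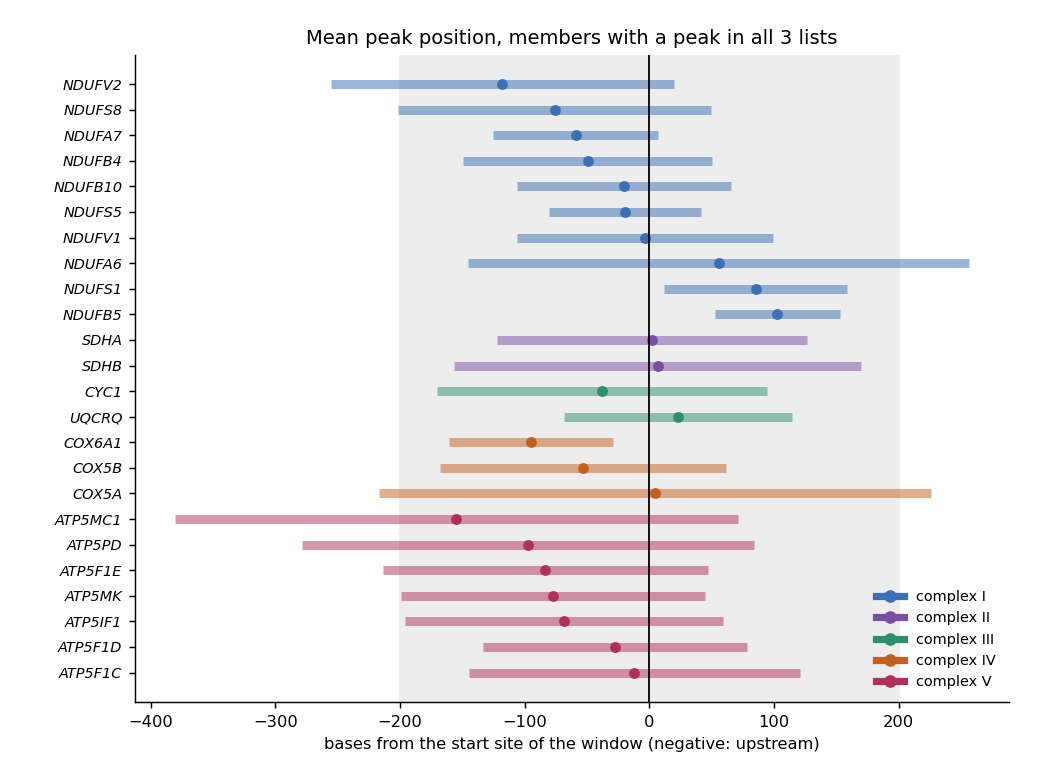
Position of the BG4 peak at the 24 respiratory chain windows with a peak in all 3 lists, in bases from the TSS of the window (horizontal axis, negative is upstream), by complex. Points are midpoints and bars are widths, each the mean over the 3 lists, and the grey band is the 400 bp window. The 7 complex V midpoints all lie left of the TSS, and the 2 of complex II lie just right of it, though upstream of their RefSeq starts.

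Head-to-head promoters, with a TSS on the other strand within 1000 bp upstream, were more frequent among the members: 17 of 76 (22.4%), against 14.0% of all protein-coding windows. They were 10 in complex I, 2 in complex II, 3 in complex III, none in complex IV and 2 in complex V. Among members a peak in all 3 lists was found at 6 of 17 head-to-head windows (35.3%) and 18 of 59 others (30.5%). Over all protein-coding windows it was found at 46.8% of head-to-head windows and 20.1% of the others. A partner TSS within 50 bp, a distance that was not planned, was found at 7 members. SDHA and NDUFB5 among them had a peak in all 3 lists, NDUFA3 had one in 2, and NDUFB1, NDUFA9, NDUFS6 and UQCRH had none. Without a peak were thus 4 of 7, against 26.1% of the 352 protein-coding windows with so close a partner. These 7 windows are too few to show whether the shares differ. At such promoters the reads and peaks cannot be assigned to one gene of the pair, and 34 of the 76 member windows overlap another window.

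Promoter sequence could be read for 51 members whose RefSeq start lies within 200 bp of the window's TSS, against 10571 protein-coding windows. The members' upstream bases had a median of 60.8% G and C (36.4 to 76.8%), against 62% in all. Members with a peak in all 3 lists had a median of 65.4%, those with a peak in 1 or 2 lists 60.8%, and those with none 48.8%. Over all protein-coding promoters the same medians were 68%, 63.6% and 56%. Across the 51 members GC content and log2 CPM had a Pearson's r of 0.51 and a Spearman's rho of 0.44, and across all 10571 promoters 0.47 and 0.50. These are descriptions across genes, which are not independent replicates and share their libraries.

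Peaks were also counted within ranges of GC content, which hold few members each. At 60 to 70% a peak in all 3 lists was found at 11 of 20 members (55%), against 38.3% of all promoters in that range, and at 70% and above at 6 of 9 (66.7%), against 45.2%. At 50 to 60% it was 3 of 12 (25%), against 16.6%, and under 50% 0 of 10, against 0.957%. The 95% Wilson intervals of the members were 34.2 to 74.2%, 35.4 to 87.9%, 8.89 to 53.2% and 0 to 27.8%, and each holds the share of all promoters in its range. Counting at least 2 lists, 17 of 20 members at 60 to 70% had a peak (85%), against 52.8% of all, and 9 of 12 at 50 to 60% (75%), against 31.1%. UQCR10, at 45.2%, was the one member under 50% with a peak in at least 2 lists. COX6B2 and COX8C, the testis forms, had 72.8% and 65.2% GC and means of 11.4 and 7.53 CPM.

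**Figure D4:**
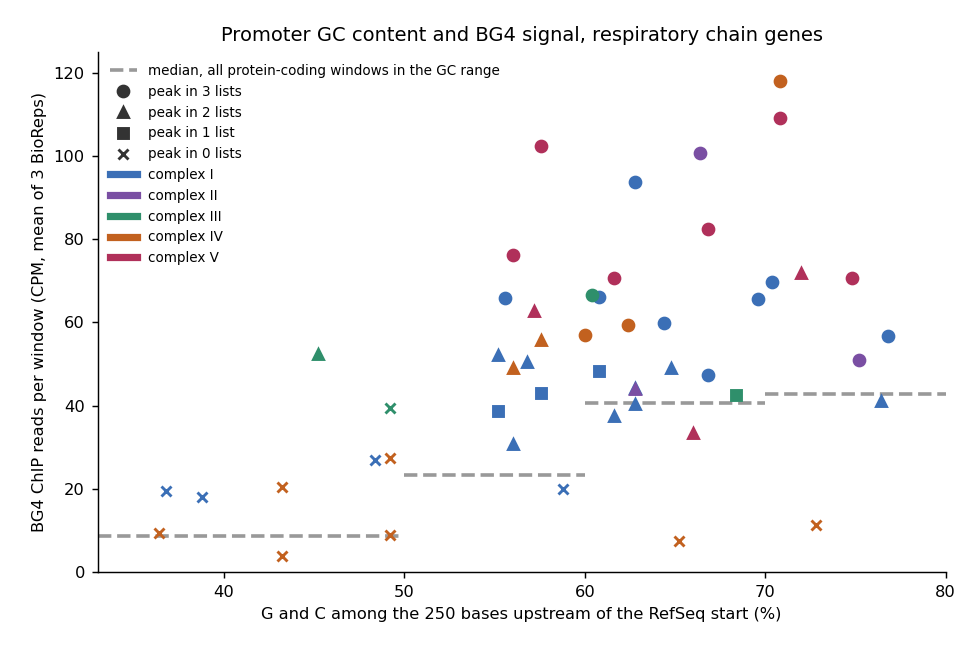
G and C content of the 250 bases upstream of the RefSeq start (%, horizontal axis) and BG4 level (CPM, mean of the 3 biological replicates, vertical axis) for the 51 respiratory chain genes with a promoter sequence. Colours are complexes, symbols give the number of lists with a peak, and dashed lines are the medians of all protein-coding windows in 4 ranges of GC content. COX5A stands at 70.8% and 118 CPM, and 2 complex IV crosses with no peak lie below 12 CPM at 65.2% and 72.8%.

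The sequence pattern of a G-quadruplex was counted in the same promoters. The pattern searched was 4 runs of at least 3 G with 1 to 7 bases between runs, on either strand. It was found in 11 of 51 member promoters (21.6%, interval 12.5 to 34.6%), against 28.4% of all promoters. A peak in all 3 lists was found at 4 of the 11 members with the pattern (36.4%, interval 15.2 to 64.6%) and 16 of the 40 without it (40%, 26.3 to 55.4%). The intervals overlap, and 11 promoters are too few to show whether these shares differ. Over all protein-coding promoters those shares were 35.7% and 24.6%. In the sequences above, ATP5PD holds the pattern on the strand of the gene between bases -195 and -172, and SDHB holds it on the other strand, as runs of C, between -157 and -135. COX5A, NDUFA6 and UQCRQ, all with peaks, hold no match in this stretch. COX6B2 and COX8C, with no peak, hold one. With 1 to 12 bases between runs 14 of 51 members matched (27.5%), against 42.2% of all.

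Letters of known promoter elements were counted in the same bases on both strands. GGGCGG, the core of the Sp1 site, was in 27 of 51 members (52.9%), against 56.8% of all promoters. CCGGAAGT, which holds the core that GABP and related ETS factors bind, was in 10 of 51 (19.6%), against 5.29%. GCGCATGC, the core of the NRF1 palindrome, was in 9 of 51 (17.6%), against 4.12%, and followed by GC, as the full palindrome, in 3 (5.88%), against 1.65%. TATAAA was in 5 (9.80%), against 9.98%. GCGCATGC was in 6 of the 20 members with a peak in all 3 lists, 2 of the 19 with one in 1 or 2 lists and 1 of the 12 without a peak, against 6.81%, 6.44% and 1.89% of all promoters in those classes. CCGGAAGT was in 5 of 20, 4 of 19 and 1 of 12, against 9.10%, 9.56% and 1.81%. Both sequences were thus less frequent without a peak over all promoters too. The NRF1 core can be read in the SDHB and NDUFA6 sequences above and CCGGAAGT in ATP5PD and UQCRQ. A match of letters is a description and shows no binding.

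Related nuclear genes outside the complexes were described in the same way. Over all protein-coding windows a peak was found in all 3 lists at 23.9% and in at least 2 at 34.1%. Of 42 assembly factors with a window, which build the complexes without being part of them, 18 had a peak in all 3 lists (42.9%) and 32 in at least 2 (76.2%), with a median of 45.2 ± 1.00 CPM (SD, n = 3). The highest were FMC1, an ATP synthase factor, at 109 CPM, COX20, for complex IV, at 104 CPM, and NDUFAF8, for complex I, at 95.9 CPM. The lowest were NDUFAF1, for complex I, at 20.2 CPM and SCO1, a copper carrier for complex IV, at 7.59 CPM, with windows 507 and 842 bp from the RefSeq start. Of 12 regulators of mitochondrial genes, 5 had a peak in all 3 lists (41.7%), and TFB1M, a mitochondrial rRNA methyltransferase, ESRRA, a nuclear receptor, and POLRMT, the mitochondrial RNA polymerase, were highest at 94.4, 78.0 and 60.5 CPM. GABPA and TEFM were lowest at 16.1 and 13.9 CPM, in windows 402 and 582 bp from the RefSeq start. CYCS, cytochrome c itself, had 75.3, 85.5 and 89.5 CPM and a peak in all 3 lists.

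No respiratory chain window was called different between biological replicates. The counts of all windows were compared with edgeR's quasi-likelihood test, adjusted over the 17499 windows that passed the filter on low counts, 67 of them members. At an adjusted p under 0.05, 0 members and 0.0% of all windows were called for BioRep2 minus BioRep1, for BioRep3 minus BioRep1, for BioRep3 minus BioRep2 and for any of the 3. At an unadjusted p under 0.05 there were 10, 9, 3 and 6 members (14.9%, 13.4%, 4.48% and 8.96% of 67), against 1328, 1508, 979 and 1379 windows in all (7.59%, 8.62%, 5.59% and 7.88%). DESeq2's Wald test also called 0 members in the 3 contrasts. At an unadjusted p under 0.05 it had 6, 6 and 0 of 76 members (7.89%, 7.89% and 0%). Among all 58381 windows it had 851, 1350 and 618 (1.46%, 2.31% and 1.06%). Those include the windows with low counts that the edgeR filter removed, so the shares are not for like sets of windows. Over all 76 members the CPM was higher in BioRep2 than in BioRep1 at 50 (65.8%), against 50.6% of all protein-coding windows. It was higher in BioRep3 than in BioRep1 at 56 (73.7%), against 52.6%, and higher in BioRep3 than in BioRep2 at 41 (53.9%), against 51.9%. The 2 sets differ in level, with medians of 42.6 and 23.4 CPM, and windows of like level were not compared. ATP5ME, a membrane subunit of the synthase, had the smallest unadjusted p of the members, with 51.5, 82.4 and 81.4 CPM in BioRep1, BioRep2 and BioRep3. Its log2 difference for BioRep2 minus BioRep1 was 0.64 ± 0.17 (SE, edgeR adjusted p = 0.356). It had a peak in BioRep2 and BioRep3 and none in BioRep1. The spread in this test is that between technical libraries, and no label says that the 3 biological replicates were grown apart. The median coefficient of variation over the 3 biological replicates was 0.129 for the members and 0.138 for all protein-coding windows.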

How the data were processed

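BG4 ChIP-seq of HEK293 was used: 9 ChIP libraries, 3 technical libraries for each of 3 biological replicates, grouped by sample title. The 3 inputs were not analysed here. The members, gene lists, tests and alternatives were chosen with earlier results of these data known.

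The deposited coverage files hold unscaled counts of reads in 58381 windows, each 400 bp wide and centred on a GENCODE release 28 TSS (hg38), with no input subtracted. Each biological replicate has 1 deposited peak list, which gives positions and no score. Tools listed in the submitters' processing notes are BWA, MACS2, bedtools, cutadapt and Picard. For peak thresholds and duplicates, the settings were not given in the sources used here. Removal of duplicates would lower the densest windows most.

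Windows carry Ensembl IDs only, so genes were placed by position with RefSeq (GRCh38.p14), as the report states. Strand came from the RefSeq promoter table for 71 members. For the rest both gene ends were tried, and 151 genes reached at both were dropped. A window had a peak where 1 bp overlapped. CPM is scaled to reads in windows, a total that is not the library's depth. A value with ± is a mean and SD over the 3 biological replicates unless marked SE.

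Counts were fitted with edgeR 4.0.16 in R 4.3.3 (quasi-likelihood, TMM, filterByExpr, robust, Benjamini-Hochberg), with DESeq2 1.42.0 as an alternative, and the fit was tested on simulated data. Python 3.11.15 with pandas 2.3.3, scipy 1.17.1 and matplotlib 3.10.9 did the rest. The deviations of libraries with the same technical number were correlated between biological replicates (r at most 0.0263), so the numbers were not taken as pairs. Promoters for motif counts are the RefSeq start nearest each window's TSS within 200 bp.

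Named genes followed a rule: the 4 highest and 2 lowest by mean CPM in complexes I, III, IV and V, all of complex II, members with a peak in exactly 2 lists, and the 3 highest and 2 lowest of each related list. A gene that this rule names is not reported here and is left out of the plot of levels, and it still counts in its groups. Others, such as the extremes of position, GC content or a test, were named after their values were seen. In current RefSeq the gene once named NDUFA4 is COXFA4, so the symbol rule leaves it out, and it was added to complex IV as an alternative. Alternatives covered peak rules, overlap, window distance, isoforms, library scaling, the fit's settings and each replicate left out.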

Additional observations from a re-analysis of the deposited data

How the results depend on the processing

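The share of respiratory chain windows with a peak depended on the lists. In at least 2 lists it was 57.9%, against 34.1% of all protein-coding windows, and in any list 67.1%, against 41.3%. With peaks wider than their list's median it was 17.1%, against 14.0%, so the margin was small under that rule. When each list was left out it ran between 31.6% and 57.9%, highest without BioRep1. All windows then had 33.01% without BioRep1, 24.7% without BioRep2 and 24.2% without BioRep3. The same shares of all windows stand beside each complex below. For complex I the shares in at least 2, in any and with wider peaks were 57.6%, 72.7% and 9.09%. The last is below the 14.0% of all windows. Complex II had 100% in at least 2 and in any list, complex III 62.5% in any, and complex V 75% and 81.2%. Leaving out a list gave 30.3 to 57.6% for complex I, 50 to 100% for II, 25 to 50% for III, 20 to 33.3% for IV and 43.8 to 75% for V. A 50 bp overlap changed none of these.

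Median CPM moved beyond its SD for a few settings. With windows within 200 bp it was 43.4 for complex I, 48.3 for III, 20.4 for IV, 46.0 for all members and 25.1 for all protein-coding windows. Without mitochondrial windows it was 43.2 for complex III and 24.1 for all protein-coding windows. Without tissue and germline forms it was 47.6 for complex IV and 44.8 for all members, and with COXFA4 added, chosen after seeing the data, 18.8 for complex IV. Leaving out a biological replicate or technical number gave 40.1 to 42.2 for complex I, 51.9 to 57.3 for II, 40.6 to 42.7 for III, 15.0 to 18.2 for IV, 55.1 to 61.3 for V, 41.8 to 43.7 for all members and 23.0 to 23.7 for all protein-coding windows. Complex V stayed highest under all of these settings, and complex IV lowest except without tissue and germline forms, where complex I had the lowest mean of the 3 replicate medians. The pattern of runs of 2 G was in 88.2% of member promoters, against 85.9% of all.

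No member was called between biological replicates under any setting. Over all windows, with no filter on low counts, 6, 28 and 25 were called for BioRep2 minus BioRep1, BioRep3 minus BioRep1 and any of the 3. With the technical number as a replicate block 1 window was called for each of the first 2 contrasts and 0 for the others. Leaving out a library gave 0 to 1, 0 to 2 and 0 to 1 windows. The causes were not tested.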
